A study of Mus musculus with 6 samples.

Results

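The genes described here restrain the cell cycle: the CDK inhibitors Cdkn1b, Cdkn1c, Cdkn2c and Cdkn2d, the Rb family Rb1, Rbl1 and Rbl2, and the growth arrest genes Gadd45a, Gadd45g and Gas1. They were found as the probe sets whose only gene symbol on the array platform is one of these 10 names. That gave 10 probe sets of the 16311 with a single symbol, for 9 genes of 15153; 2 probe sets read Cdkn1b, and no probe set is paired with Cdkn2c here, so Cdkn2c was not analysed.

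RNA came from presomitic mesoderm of the mouse embryo at embryonic day 9.5, the unsegmented tissue at the tail end that buds off somites. Each of 6 arrays read a pool of 3 tissues taken at 17 to 19 somites. The 3 control pools came from embryos labelled WT, with the genotype Taf10Flox/+ or Taf10flox/flox, and the labels do not say how many of each a pool held. The 3 mutant pools came from TCre/+;Taf10flox/flox embryos, in which Cre under control of the mesodermal gene T (Brachyury) removes the floxed part of Taf10 in mesoderm as it forms. TAF10 is a subunit of the transcription complexes TFIID and SAGA, and the comparison asks what its loss does to gene expression in this tissue. In bulk tissue of this kind, fewer cells of a type and less RNA per cell cannot be told apart.

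Passage from G1 into S phase depends on cyclin-dependent kinases (CDKs), which phosphorylate the Rb proteins and so release the E2F transcription factors. CDK inhibitors of the Cip/Kip class (Cdkn1b, Cdkn1c) bind cyclin and CDK together, while those of the Ink4 class (Cdkn2c, Cdkn2d) bind Cdk4 and Cdk6. Rb1 binds mainly the activating E2Fs, and Rbl1 and Rbl2 bind repressive E2Fs and the MuvB complex to silence cell cycle genes in quiescent cells. Progenitors of the presomitic mesoderm cycle quickly, and Cdkn1c is known as a gene switched on when embryonic cells leave the cycle.

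Array medians were alike, from 307.9 to 317.5 intensity units. Mutant 3 stood apart from the other arrays, at 31.1 on the first principal component against -16.3 to 3.79 for the rest. Control 3 had a log2 level of 6.32 for Xist, the RNA of the inactive X chromosome, against 11.3 to 12.6 on the other arrays, so male and female embryos were not evenly spread over the pools. The brighter Taf10 probe set read 10.6 to 10.8 in controls and 10.2 to 10.4 in mutants, and passed as lower (limma adjusted p = 0.0400); the other read 8.79 to 8.95 and 8.85 to 9.19 and did not pass (0.530). The stretch of the transcript that each reads is not known here, so whether either reads the deleted part cannot be said. Presomitic markers Msgn1 (log2 level 12.16 in controls) and Tbx6 (11.98) were bright, and others were dimmer, down to Ripply2 (7.74) and Cyp26a1 (6.98). T, which is also a defining marker, was not analysed here. The summed intensity of 11 presomitic markers was 20552 to 21795 in controls and 25396 to 27823 in mutants. Their median log2 change was 0.05, with 6 positive and 5 negative.

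Of the 9 measured genes, Cdkn1c and Rb1 rose in the mutant, 0 fell and 7 did not pass the test (limma on log2 intensity, adjusted p under 0.05 over all probe sets with a single symbol). Over all 15153 genes 5.92% were called, 2.96% as higher and 2.96% as lower. The members' log2 changes ran from -0.25 to 0.61 with a median of 0.14, and the median over all genes was 0.03. In 5 of the 9 genes (Cdkn1c, Cdkn2d, Rb1, Rbl1 and Gas1) each mutant pool lay above each control pool, as did 17.2% of all genes, and in 0 of the 9 each lay below, against 15.1% of all genes (32.3% in either direction). At an unadjusted limma p under 0.05 there were 4 members, all higher, where 22.7% of all genes reached that p in either direction.

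**Figure D1:**
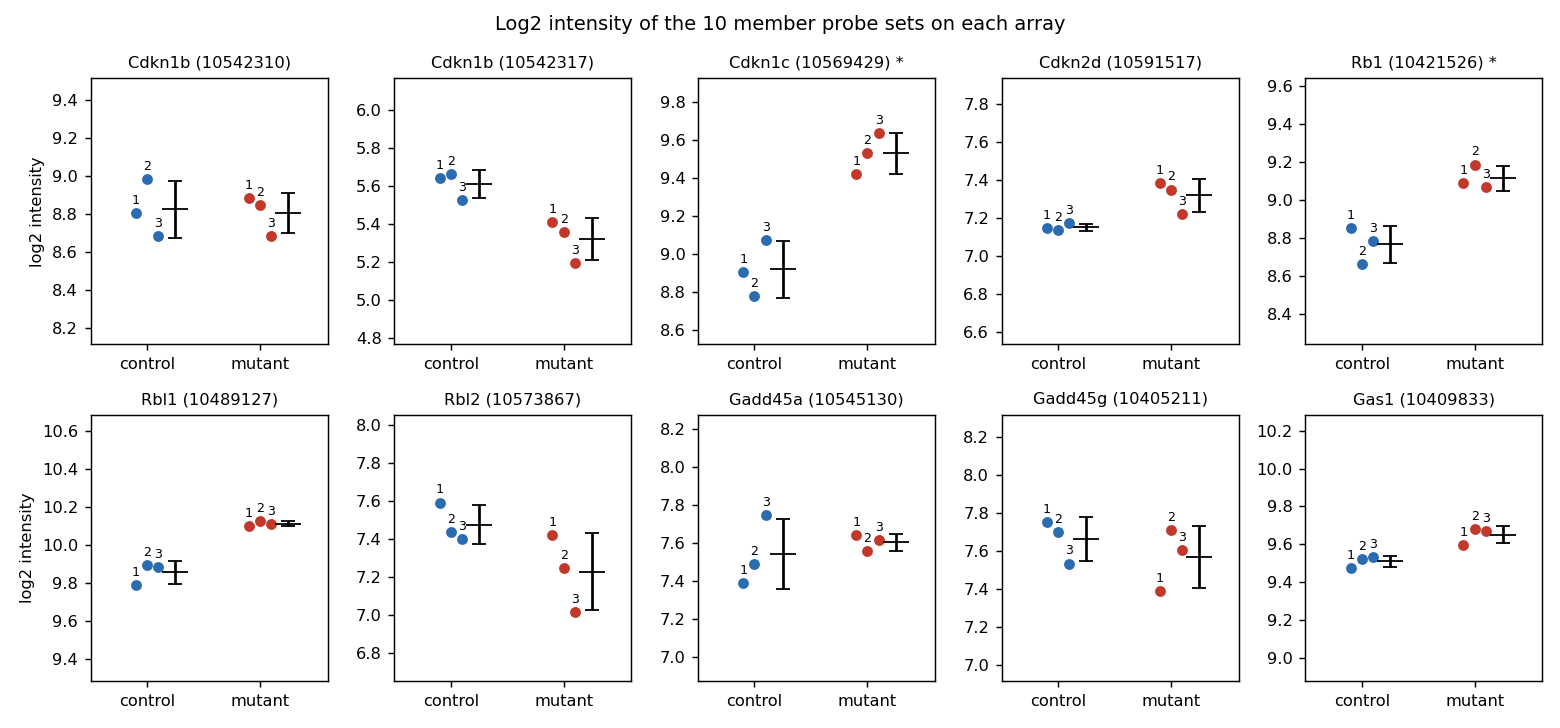
Log2 intensity (y axis, each panel spanning the same number of log2 units) of the 10 member probe sets on the 3 control (blue) and 3 mutant (red) arrays, numbered by replicate; black bars are the mean and SD of each group and a star marks a limma adjusted p under 0.05. Cdkn1c, Cdkn2d, Rb1, Rbl1 and Gas1 have all mutant points above their control points, and the dimmer Cdkn1b probe set has all of them below.

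Cdkn1c encodes p57Kip2, a Cip/Kip inhibitor expressed from the maternal allele that is needed for cells of many embryonic tissues to stop dividing. Its log2 intensity was 8.90, 8.78 and 9.07 in controls 1, 2 and 3 and 9.42, 9.53 and 9.63 in mutants 1, 2 and 3. The lowest mutant lay above the highest control, and mutant 3 was the highest of all. The mean went from 8.92 ± 0.15 to 9.53 ± 0.11 (SD, n = 3 each), a 1.53-fold rise (log2 0.61, SE 0.09, 95% interval 0.39 to 0.83, limma adjusted p = 0.0134). An exact permutation test (two-sided, 3 pools against 3) gave p = 0.1, which is the lowest it can give. The change lay between 0.54 and 0.69 with each array left out. The call was lost without control 1 (limma adjusted p = 0.0836) and without control 2 (0.0833). Over all genes, 0.271% were called without control 1 and 0.442% without control 2, against 5.92% with all arrays. The share was 2.13% without control 3, 3.1% and 2.34% without mutants 1 and 2, and 12.8% without mutant 3. Calls gained or lost with an array left out, here and below, are to be read beside these shares.

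Cdkn1b encodes p27Kip1, the other Cip/Kip inhibitor measured, whose level is set largely by protein turnover. Its brighter probe set (10542310) read 8.80, 8.98 and 8.68 in controls and 8.88, 8.84 and 8.68 in mutants, and the groups overlapped. The log2 change was -0.02 (SE 0.09, 95% interval -0.24 to 0.20, limma adjusted p = 0.913), so a rise of the size seen for Cdkn1c lies outside its interval. The dimmer probe set (10542317) read 5.64, 5.66 and 5.53 in controls and 5.41, 5.36 and 5.20 in mutants. Each mutant value lay below each control there, but the difference did not pass (log2 -0.29, SE 0.08, limma adjusted p = 0.0760). Its intensities, 36.7 to 50.7, are near the low end of the table, which runs from 20.5 to 21070, and the stretch of Cdkn1b that each reads is not known here.

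Cdkn2d encodes p19Ink4d, an inhibitor of Cdk4 and Cdk6. It read 7.15, 7.14 and 7.17 in controls and 7.39, 7.35 and 7.22 in mutants. The controls lay close together and mutant 3 was nearest to them. The log2 change of 0.17 (SE 0.07, 95% interval 0.01 to 0.33) did not pass (limma adjusted p = 0.194), and passed without mutant 3 (log2 0.22, limma adjusted p = 0.0317). Without each other array the limma adjusted p lay between 0.292 and 0.428. After quantile normalization the log2 change was 0.11 (limma adjusted p = 0.473). Of the other Ink4 genes, Cdkn2a had a log2 change of 0.03 (95% interval -0.13 to 0.19) and Cdkn2b of 0.05 (-0.12 to 0.23), and neither passed. In all, 1 of 5 measured CDK inhibitor genes rose and 0 fell.

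**Figure D2:**
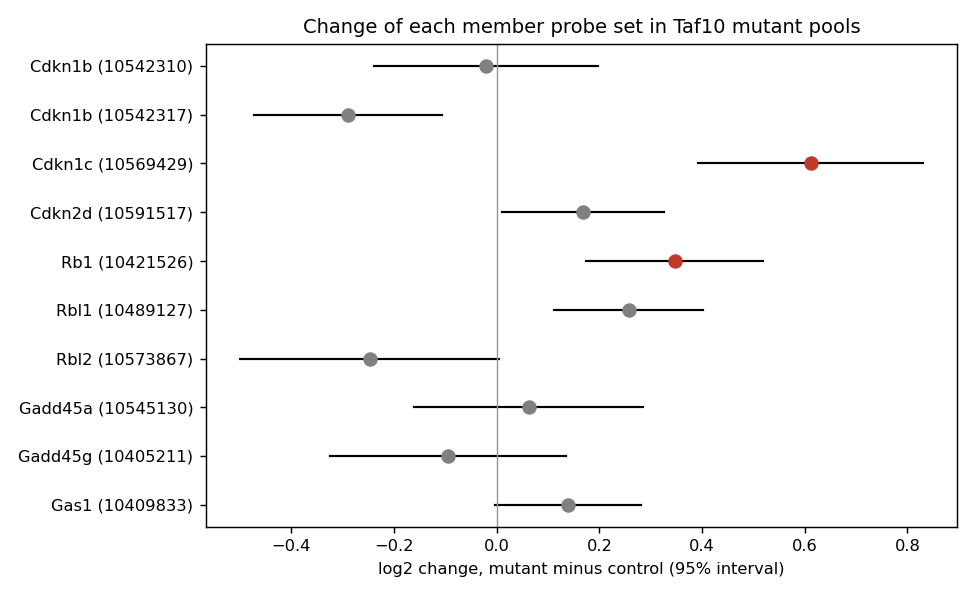
Log2 change, mutant minus control (x axis), of the 10 member probe sets with limma's 95% interval; red points passed at an adjusted p under 0.05. Cdkn1c at 0.61 and Rb1 at 0.35 passed, Rbl1 at 0.26 lay just outside the threshold, and Rbl2 at -0.25 and the dimmer Cdkn1b probe set at -0.29 lay on the other side of 0 without passing.

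Rb1 encodes pRb, the tumour suppressor that holds activating E2Fs. It read 8.85, 8.66 and 8.78 in controls and 9.09, 9.18 and 9.06 in mutants, with no overlap between the groups. It rose 1.27-fold, from 8.76 ± 0.10 to 9.11 ± 0.06 (SD, n = 3 each; log2 0.35, SE 0.07, limma adjusted p = 0.0374). The change kept its size with each array left out, between 0.29 and 0.39. The call did not: without control 1, 2 or 3 or mutant 1 or 2 the limma adjusted p was 0.103, 0.167, 0.106, 0.0834 and 0.111, and it held without mutant 3 (0.0149). With the level of Xist as a covariate it was also lost (log2 0.35, limma adjusted p = 0.0856).

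Rbl1 encodes p107 and Rbl2 encodes p130; p107 is the pocket protein of cycling cells and its gene is a known E2F target, whereas p130 prevails in quiescent cells. Rbl1 read 9.79, 9.89 and 9.88 in controls and 10.10, 10.12 and 10.11 in mutants. All 3 mutant pools lay within 0.03 log2 units of each other and above the controls. At 1.19-fold (log2 0.26, SE 0.06, 95% interval 0.11 to 0.40) it lay just outside the threshold (limma adjusted p = 0.0543). It passed without mutant 3 (limma adjusted p = 0.0247) and after quantile normalization (0.0392, where 6.53% of all genes were called). Without control 1, 2 or 3 or mutant 1 or 2 the limma adjusted p was 0.208, 0.171, 0.125, 0.118 and 0.145. With Xist as a covariate it was 0.0932. Rbl2 read 7.59, 7.44 and 7.40 in controls and 7.42, 7.25 and 7.02 in mutants. The groups overlapped, mutant 3 was lowest, and the log2 change of -0.25 (SE 0.11, 95% interval -0.50 to 0.004) did not pass (limma adjusted p = 0.226). Of the 3 Rb family genes 1 rose and 0 fell.

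**Figure D3:**
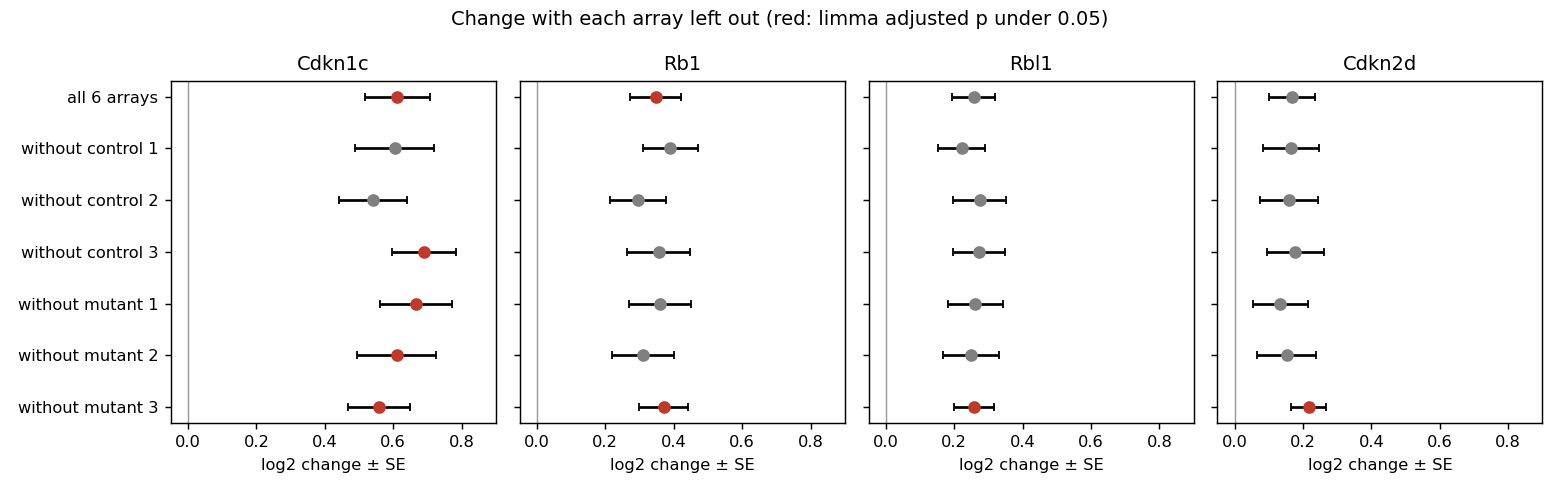
Log2 change ± SE (x axis) of Cdkn1c, Rb1, Rbl1 and Cdkn2d from all 6 arrays and with each array left out in turn (y axis); red points passed at a limma adjusted p under 0.05. The changes stay above 0 throughout, Cdkn1c loses the call without control 1 or control 2, and Rb1 keeps it only with all arrays or without mutant 3.

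The start sites of Rbl1 and Rbl2 are shown because the log2 changes of these family members differ in sign, although neither passed. Each line gives 250 bases before to 50 after the start, 5′ to 3′ on the gene's strand, from RefSeq on GRCm38.p6 (Rbl1 at chr2:157204485-157204784, minus strand; Rbl2 at chr8:91069807-91070106, plus strand). Capitals mark an E2F word in Rbl1 and a CHR word, the element bound by MuvB, in Rbl2.
Rbl1: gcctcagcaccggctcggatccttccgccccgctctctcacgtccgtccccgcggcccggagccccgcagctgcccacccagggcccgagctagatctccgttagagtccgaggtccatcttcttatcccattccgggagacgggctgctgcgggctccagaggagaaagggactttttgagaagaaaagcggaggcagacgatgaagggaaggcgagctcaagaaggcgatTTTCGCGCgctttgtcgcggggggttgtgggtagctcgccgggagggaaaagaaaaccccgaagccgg
Rbl2: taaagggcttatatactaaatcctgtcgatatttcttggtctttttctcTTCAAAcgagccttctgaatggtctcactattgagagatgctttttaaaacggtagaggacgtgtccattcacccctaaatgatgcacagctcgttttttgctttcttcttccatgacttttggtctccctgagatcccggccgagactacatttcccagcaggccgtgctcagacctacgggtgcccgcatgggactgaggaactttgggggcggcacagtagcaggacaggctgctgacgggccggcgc
The E2F search used TTTCGCGC, TTTGGCGC, TTTCCCGC and TTTGCCGC and the CHR search TTTGAA, each on both strands. In Rbl1 the E2F word TTTCGCGC lies at -18 to -11 from the start, and 2.26% of the 32851 RefSeq windows of this length hold one of the E2F words. In Rbl2 the CHR word lies at -201 to -196 on the other strand, and 17.9% of windows hold one. RefSeq windows were matched for 8 of the 10 genes, and Cdkn1c and Rb1 are not among them. Of those 8 genes, Rbl1 alone held an E2F word and Rbl2 alone a CHR word. These are matches of letters and not measured sites.

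The growth arrest genes did not pass. Gadd45a and Gadd45g encode small stress proteins that bind and activate the kinase Map3k4, and Gadd45g is also expressed in differentiating progenitors of the embryo. Gadd45a read 7.39, 7.49 and 7.75 in controls and 7.64, 7.55 and 7.61 in mutants, and the mutant pools lay inside the range of the controls. Its log2 change was 0.06 (95% interval -0.16 to 0.29, limma adjusted p = 0.723). Gadd45g read 7.75, 7.70 and 7.53 in controls and 7.39, 7.71 and 7.60 in mutants, again with overlap (log2 -0.10, 95% interval -0.33 to 0.13, limma adjusted p = 0.593). Their relative Gadd45b, no member of the list, read 6.40 to 6.89 in controls and 7.06 to 7.19 in mutants. Its change of 0.49 (SE 0.12) lay just outside the threshold (limma adjusted p = 0.0561) and passed without control 3 (log2 0.62, limma adjusted p = 0.0330). Without each other array it did not pass (limma adjusted p from 0.0565 to 0.212).

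Gas1 encodes a membrane-anchored protein found through growth arrest of fibroblasts, which also acts as a Hedgehog co-receptor. It read 9.48, 9.53 and 9.53 in controls and 9.60, 9.68 and 9.67 in mutants. The groups did not overlap, but the difference was small and did not pass (1.10-fold, log2 0.14, SE 0.06, 95% interval -0.003 to 0.28, limma adjusted p = 0.228). Of 6 measured genes of Hedgehog reception 0 passed in limma, and those at an unadjusted p under 0.05 were the receptor and target gene Ptch1 (log2 0.18) and the co-receptor Boc (log2 -0.30). Without mutant 3, Boc passed as lower (log2 -0.44, limma adjusted p = 0.00562), in a setting where 12.8% of all genes were called.

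Cdkn1c lies in an imprinted domain together with Phlda2, a growth-restraining gene that is also expressed from the maternal allele. Phlda2, the second measured gene past Cdkn1c in the RefSeq order, read 11.86, 11.87 and 11.79 in controls and 12.40, 12.24 and 12.42 in mutants. It rose 1.43-fold (log2 0.51, SE 0.07, limma adjusted p = 0.0106). Cd81, a tetraspanin gene 4 measured genes away on the other side, rose 1.24-fold (log2 0.31, SE 0.07, limma adjusted p = 0.0369). The genes directly beside Cdkn1c did not pass: Kcnq1 had a log2 change of 0.08 (95% interval -0.09 to 0.25) and Slc22a18 of 0.16 (-0.11 to 0.43). Past Phlda2, Nap1l4 had a log2 change of -0.15 (95% interval -0.29 to -0.01) and Cars of -0.21 (-0.36 to -0.05). Neither passed, though each mutant pool lay below each control in both, as in 15.1% of all genes. Of 9 measured genes in the list of imprinted neighbours 2 rose and 0 fell, with a median of 0.08. Over all genes 2.96% were called as higher. Igf2, also in the list of imprinted neighbours, was at 0.05. Without control 1 or control 2 neither Phlda2 (limma adjusted p = 0.0671 and 0.0675) nor Cd81 (0.120 and 0.169) passed, and Cd81 passed with an array left out only without mutant 3.

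**Figure D4:**
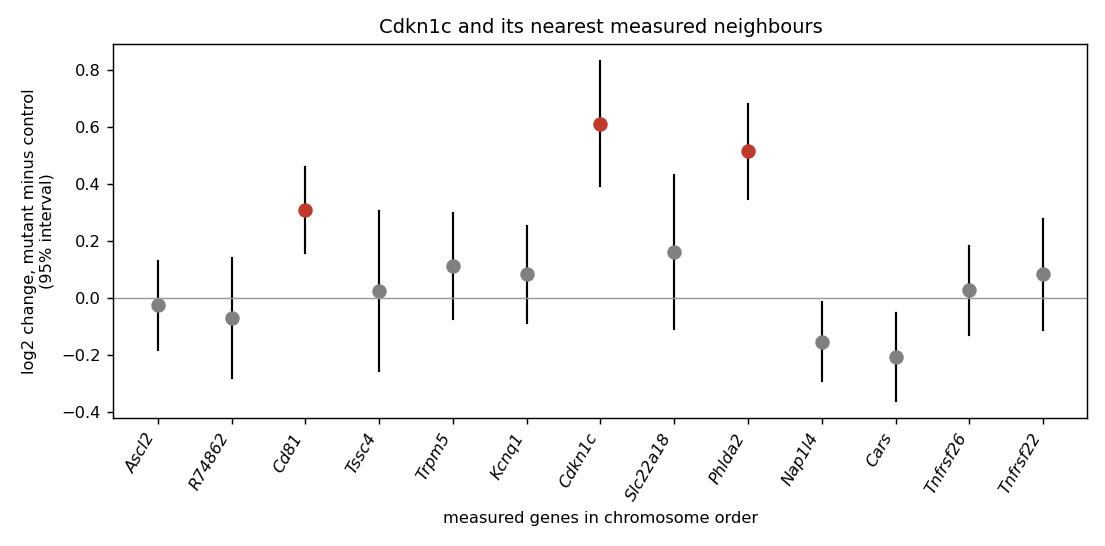
Log2 change, mutant minus control (y axis, limma's 95% interval), of Cdkn1c and the 6 measured genes on either side in chromosome order; red points passed at an adjusted p under 0.05. Cdkn1c (0.61), Phlda2 (0.51) and Cd81 (0.31) passed, with genes between them that did not.

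The kinases and cyclins that these inhibitors act on were mostly not called. Of 12 G1 cyclin and CDK genes Ccne1, the cyclin partner of Cdk2, fell to 81.5% of control (10.81 to 10.89 in controls, 10.49 to 10.59 in mutants, log2 -0.29, SE 0.06, limma adjusted p = 0.0386). The other 11 did not pass, among them the activating phosphatase gene Cdc25a (log2 -0.31, limma adjusted p = 0.118) and Cdk6 (log2 -0.27, limma adjusted p = 0.143). Log2 changes were -0.03 for Cdk4 (95% interval -0.17 to 0.11), -0.04 for Cdk2 (-0.19 to 0.10) and -0.02 for Ccnd1 (-0.17 to 0.13). The list's median was -0.14 with 11 of 12 values negative, and the median of all 5467 genes in the same range of levels was -0.03, with 56.8% negative. Without mutant 3 the list's median was -0.05 and 8 values were negative. Ccne1 lost its call without each other array (limma adjusted p from 0.0872 to 0.163) and after quantile normalization (0.0540).

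Of 10 E2F and DP genes 0 passed in limma, also at an unadjusted p under 0.05. The median was -0.10, and the smallest p belonged to Tfdp2 (log2 -0.35, limma adjusted p = 0.242), E2f1 (log2 -0.18) and E2f6 (log2 -0.29). Without mutant 3, E2f1 passed as lower (log2 -0.29, limma adjusted p = 0.0187). Of 7 genes for the MuvB complex and its activators, Lin9, a core subunit, rose 1.30-fold (8.82 to 8.94 in controls, 9.24 to 9.29 in mutants, log2 0.38, SE 0.06, limma adjusted p = 0.0183). The other 6 did not pass, among them Mybl2, the activator that joins MuvB in cycling cells (log2 -0.21, limma adjusted p = 0.185). Lin9 lost its call without control 1, 2 or 3 or mutant 2 (limma adjusted p from 0.0637 to 0.113). Of 6 measured chromatin partners of Rb 0 passed in limma, and at an unadjusted p under 0.05 there was the histone deacetylase gene Hdac1 (log2 0.22, limma adjusted p = 0.0832), which passed after quantile normalization (0.0487).

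Of 8 genes for p27 turnover and control, Foxo4, a forkhead factor known to activate Cdkn1b, fell to 76.8% of control (8.58 to 8.64 in controls, 8.14 to 8.32 in mutants, log2 -0.38, SE 0.07, limma adjusted p = 0.0237). Foxo1 did not pass (log2 0.25, limma adjusted p = 0.0937), though it did without mutant 3 (0.0215). Skp2, which targets p27 for degradation, had a log2 change of 0.02. Foxo4 lost its call without control 1, 2 or 3 or mutant 2 (limma adjusted p from 0.0702 to 0.126). Of 6 kinase genes downstream of the Gadd45 proteins, Map2k6, an activator of p38 kinase, fell to 69.3% of control (9.92 to 9.99 in controls, 9.31 to 9.54 in mutants, log2 -0.53, SE 0.07, limma adjusted p = 0.0109). The other 5 did not pass, among them Map3k4 itself (log2 0.15, limma adjusted p = 0.217). Map2k6 lost its call without control 1 (limma adjusted p = 0.0637) and without control 2 (0.0770).

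The genes whose values over the 6 arrays were most like those of Cdkn1c were Gria3, Dzip1 and Ptar1 (Pearson r 0.998, 0.997 and 0.997), with log2 changes of 0.64, 0.47 and 0.18. For Rb1 they were Dipk1a, Cpm and Apbb2 (r 0.995, 0.995 and 0.992), with changes of 0.38, 0.54 and 0.19. With 6 arrays in 2 groups these values share the difference between genotypes, and they are a description without a test.

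Markers of cell types were read beside Cdkn1c and Rb1. Of the 11 presomitic markers, Tbx6 and Hes7 rose (log2 0.63 and 0.52), Cyp26a1 fell (log2 -0.74) and 8 did not pass. Of 8 markers of intermediate and lateral mesoderm, Lhx1 rose 2.08-fold (log2 1.05, limma adjusted p = 0.00158) and 7 did not pass; their summed intensity was 4876 to 5632 in controls and 4427 to 5990 in mutants. Markers of somites, neural tube, notochord and gut, endothelium, erythroid cells and surface ectoderm gave 0 called of 7, 7, 7, 6, 6 and 5 in limma, with 3, 0, 0, 0, 0 and 1 at an unadjusted p under 0.05. Their summed intensities in controls and mutants were 2015 to 2497 and 1571 to 2108 (somite), 1445 to 1668 and 1535 to 1678 (neural tube), 853 to 868 and 818 to 922 (notochord and gut). For endothelium they were 671 to 1911 and 549 to 1280, for erythroid cells 9374 to 22583 and 4093 to 16724, and for surface ectoderm 989 to 1107 and 901 to 1085. All 6 endothelial markers had a negative log2 change (median -0.28), as did 5 of the 6 erythroid markers (median -0.30). In their ranges of level 26.3% and 43.4% of all genes were negative. Without control 1 the endothelial median was -0.08, and without mutant 3 the erythroid median was 0.08. All but the presomitic sums overlapped between the groups. Such a sum is weighted to the brightest probe sets, and 5 of the 11 presomitic markers had a negative change. The part of the cell makeup in the changes of Cdkn1c and Rb1 was not tested.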

How the data were processed

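The deposited values are intensities on a linear scale, made with RMA (background correction, normalization between arrays, summary per probe set) per the submitters' processing notes; the sources used here give neither its version nor its settings. Each labelling started from 150 ng of RNA, per the labels' protocols. From the deposited intensity, log2 values were taken with no further normalization. The 16311 probe sets with 1 gene symbol (734 had several, 1019 none) were fitted with limma 3.58.1 in R 4.3.3 (3 control against 3 mutant arrays, no covariate) and p-values adjusted by Benjamini-Hochberg over all of them. The brightest probe set stood for a gene. Levels of different probe sets are not comparable. Pools are biological replicates by their labels, and p-values reflect the spread between them; the number of arrays limits the precision. The fit was tested on 1 set of simulated data, with 50 probe sets changed at each size. There 2% of log2 changes of 0.25, 34% of 0.5 and 90% of 1 were called. Fewer probe sets differed there than passed here, which makes the adjustment stricter, so these shares do not carry over. A gene that did not pass can still differ between the groups. Members and lists were chosen with earlier results of these data known. All members, the measured CDK inhibitor, Rb and Gadd45 genes and, of other lists, called genes or up to 3 with the smallest p are named by rule; Cdk4, Cdk2, Ccnd1, Skp2, Map3k4, Igf2 and the genes beside Cdkn1c were added after their values were seen. Cdkn1a, whose probe set carries a further symbol, was not used. The alternatives for genes outside the list were added after seeing the data.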

Additional observations from a re-analysis of the deposited data

How the results depend on the processing

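The 20 alternatives, leaving out arrays among them, gave 152 results for single members on the same side of the threshold, 11 that lost a call, 10 that gained one and 3 that changed sign. The filter on level left 5 of the 9 measured genes, so the others have no value there. The members called as lower stayed at 0 throughout. The members called as higher, 2 in the report, were 5 with array weights (23.8% of all genes called, against 5.92% in the report), 1 with Xist as a covariate (3.39%), 0 at an adjusted p under 0.01 (0.924%) and 4 without control 3 and mutant 3 together (14%); with 1 array left out they ran from 0 to 4. Deviations of same-numbered pools correlated at 0.134, 0.0769 and 0.316, and 2 of 6 pools correlated best with their own number. These were control 3 and mutant 3, each the best match of the other. Whether same-numbered pools share a source of variation was not tested. With the replicate block 1 member was called (Cdkn1c; Rb1 had a limma adjusted p of 0.0552), and the count over all genes went from 897 to 1084. Over all genes the count was 41 (0.271%) without control 1, 67 (0.442%) without control 2 and 1945 (12.8%) without mutant 3. The log2 change of Cdkn1b with an array left out ran from -0.091 to 0.058 and was above 0 without control 2 or mutant 3. The log2 change of Gadd45a with an array left out ran from -0.013 to 0.165 and was below 0 without control 1. Neither gene was called in any of these. The cause was not tested.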
